A study of Mus musculus with 10 samples.

Results

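Predicted and RIKEN-named transcripts are the genes of the mouse annotation that carry a placeholder in place of a proper symbol, either Gm followed by a number or a clone name ending in Rik. The 300 studied here were chosen by their sum of raw counts over all 10 libraries, as the 300 largest, 127 with a Gm name and 173 with a Rik name, out of 24313 such names among 49671 listed genes. Of the 24313 names, 9013 had a count in at least 1 library. The rule used the summed counts of both genotypes and not their difference, so that abundance itself is no finding. At the edge of the list, Gm12346 and Gm44950 closed it with 1484 counts each, and A230046K03Rik and Gm12696 stood just outside with 1479 each. The 300 took 1.53% to 1.64% of a library's counts in control embryos (1.58% ± 0.0487, SD, n = 5) and 1.53% to 1.68% in p53_activated embryos (1.59% ± 0.0615).

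The libraries were made from polyadenylated RNA of GFP-positive, sorted cells of single mouse embryos at embryonic day 10.5 on a mixed 129/Sv-C57BL/6 background, with 5 embryos in each of 2 groups. The control embryos carried Wnt1Cre, the reporter R26mTmG/+ and normal Trp53 (Trp53+/+). Their littermates, called p53_activated here, carried the same Wnt1Cre and R26mTmG/+ together with 1 engineered allele, Trp53LSL-25,26/+, from which Cre releases a stabilised p53, beside 1 normal allele. Wnt1Cre acts in the dorsal neural tube and its derivatives, so sorted cells may include neural tube cells beside neural crest. Totals ran from 12368058 to 23514828 counts in control and from 14644162 to 28379562 in p53_activated libraries. Embryo sex is not in the labels and was inferred from these counts, as female where Xist exceeded the summed Y-linked genes. By this, 2 control and 3 p53_activated embryos were female. Levels are given as CPM, edgeR's counts scaled to the library's depth, after TMM scaling, a correction for library composition. The 5 neural crest markers looked at (Sox10, Tfap2a, Twist1, Foxd3 and Snai2) were all detected, with a summed level of 101 to 142 CPM in control and 82.8 to 119.8 CPM in p53_activated embryos, and 1 of the 5 was called lower. As a check of the labels, Cdkn1a, the p21 cell cycle inhibitor, rose from 7.93 ± 1.59 to 105 ± 11.9 CPM and Mdm2, the ubiquitin ligase that limits p53, from 24.5 ± 1.06 to 47.3 ± 4.41 CPM, while Trp53 itself rose from 18.2 ± 5.12 to 29.1 ± 2.99 CPM (edgeR adjusted p = 1.74e-10, 2.48e-05 and 0.0264).

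Placeholder names cover very different things. Some are ordinary protein-coding genes that received a proper symbol only later, some are long non-coding RNAs, and many are processed pseudogenes, DNA copies of a messenger RNA that was reverse transcribed and inserted elsewhere in the genome. A short read that matches a parent gene and its copy equally well cannot be placed from its sequence alone. The transcription factor p53 binds DNA as a tetramer at a pair of short motifs of 10 bases, or decamers,, and the genes it switches on include inhibitors of the cell cycle, DNA repair factors and inducers of cell death. By the GENCODE M21 annotation (GRCm38), 145 of the 300 were protein coding, 67 long non-coding, 74 pseudogenes and 12 of other kinds, and 2 (2610524H06Rik and Gm28933) were not found in it.

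The comparison of the groups asks how a stabilised p53 changes these transcripts in neural crest cells. Of the 300, all but Gm14719 entered the test, and 6 were higher and 12 lower in p53_activated embryos at an adjusted p under 0.05, which is 6.02%. Over all 14528 tested genes the share was 7.23%, with 4.49% higher and 2.74% lower, and among the 8712 tested genes with at least as many counts as the least abundant of the 300 it was 9.64% (5.99% higher and 3.65% lower). By direction, 2.01% of the placeholder-named transcripts were higher, below both backgrounds, and 4.01% lower, above the share of all genes and near that of genes with as many counts. The median log2 fold change was -0.05, against -0.01 over all tested genes, and 1.34% differed more than 2-fold, against 5.66% of all genes. All tested genes include many with fewer counts than any of the 300. These 2 values were not taken among genes with as many counts, so they do not set the 300 apart. The groups did not overlap for 19 of them. Of these, 7 were higher in every p53_activated embryo (2.34%, against 4.54% of all genes and 5.91% of those with as many counts) and 12 were lower (4.01%, against 3.52% and 4.58%). Of all 1511 tested names of the same kind 2.32% passed (0.993% higher and 1.32% lower), and of the 1212 below rank 300 1.4%. DESeq2 called 28 of the transcripts and limma-voom 13, and an unadjusted p under 0.05 was reached by 65. Over all 14528 tested genes DESeq2 called 1664 and limma-voom 893, and 3277 reached an unadjusted p under 0.05. Each of these counts was a smaller share of the tested transcripts than of all tested genes.

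**Figure D1:**
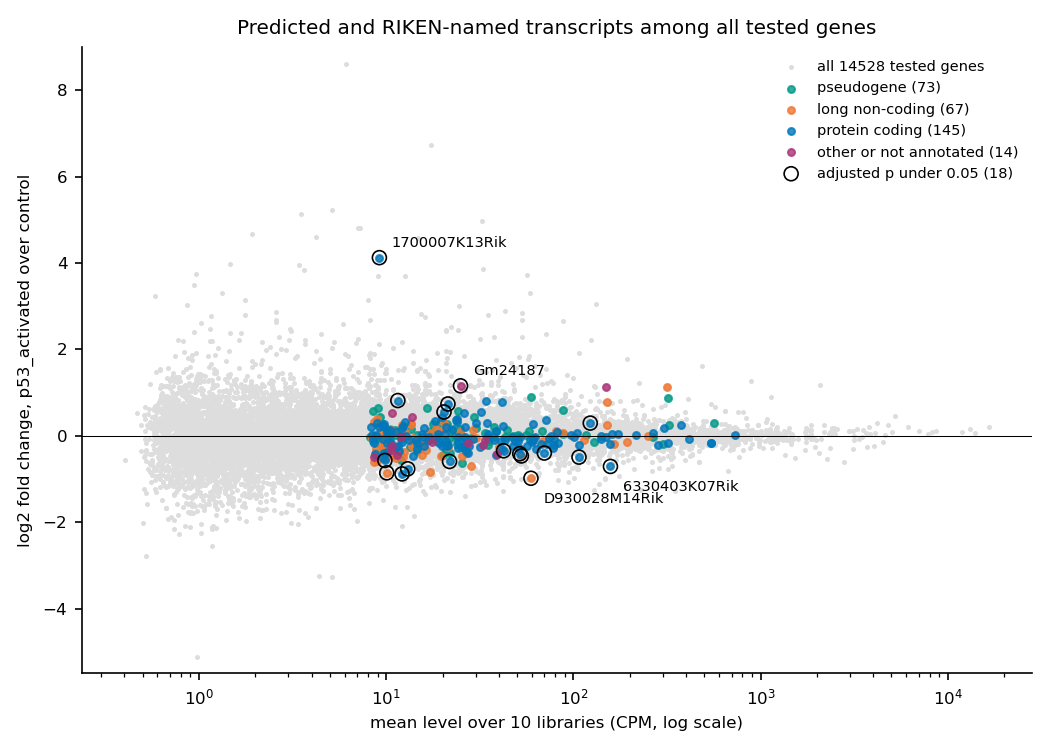
The log2 fold change (p53_activated over control) of each tested gene is plotted against its mean level over 10 libraries in CPM on a log scale. Grey points are all 14528 tested genes, coloured points the tested placeholder-named transcripts by annotation class, and open circles the 18 with an adjusted p under 0.05; 1700007K13Rik, at 4.12, lies far above the others, which run from -0.98 to 1.16.

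The strongest riser was 1700007K13Rik, which encodes a small cilium protein also known as Pierce1, a name that refers to its induction by p53. It lies on chromosome 2 from 28462001 to 28466332 on the minus strand (ENSMUSG00000026831), with no exon shared with another gene. Control embryos 1 to 5 had 0.682, 0.865, 2.04, 0.829 and 0.291 CPM, and p53_activated embryos 1 to 5 had 17.3, 21.4, 19.8, 11.5 and 17.3 CPM. The lowest p53_activated embryo was 5.66-fold above the highest control embryo. The mean went from 0.941 ± 0.653 to 17.5 ± 3.75 CPM (SD over 5 embryos). The fitted log2 fold change (log2FC) was 4.12 ± 0.35 (SE), a fitted fold of 17.4, with an adjusted p of 2.42e-06 by edgeR. Of its 1649 counts, 89 came from the control and 1560 from the p53_activated libraries. It is thus among the 300 only through the group in which it is high, and its place there supports no count over them. Near the edge of 1484 counts, 2410002F23Rik also drew more on its higher group, with 688 control and 1501 p53_activated counts. The falls Gm16104 (1052 control and 674 p53_activated), 4931406C07Rik (1002 and 755) and 5730409E04Rik (1316 and 772) drew more on control. The counts of calls given above include all of these, so their place supports no count either. Mrps2, a mitochondrial ribosomal protein gene that starts 1734 bases away on the opposite strand, did not pass the test (0.23 ± 0.18, adjusted p = 0.50).

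The upstream sequence of 1700007K13Rik is shown because it held a pair of p53 decamers, beside that of Cdkn1a for comparison. Both run from 250 to 21 bases before a RefSeq start (GRCm38.p6, chr2:28466345-28466574 on the minus strand and chr17:29090729-29090958 on the plus strand). The start used was the first whose promoter held such a pair, and a gene may have other starts. Capitals mark the paired decamers.
1700007K13Rik: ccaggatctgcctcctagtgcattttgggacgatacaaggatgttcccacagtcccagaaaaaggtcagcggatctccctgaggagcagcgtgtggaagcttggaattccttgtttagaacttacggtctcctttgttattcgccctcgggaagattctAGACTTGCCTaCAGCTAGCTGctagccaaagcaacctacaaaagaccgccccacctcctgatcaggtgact
Cdkn1a: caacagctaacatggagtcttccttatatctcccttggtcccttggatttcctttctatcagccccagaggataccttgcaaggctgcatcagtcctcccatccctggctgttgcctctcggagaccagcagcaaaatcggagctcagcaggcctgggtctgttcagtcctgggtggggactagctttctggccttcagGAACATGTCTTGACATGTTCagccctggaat

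The motif searched was 2 copies of the p53 decamer consensus, 0 or 1 base apart, each with its CNNG core; the motif reads the same on both strands. In 1700007K13Rik the pair lies 91 to 71 bases before the start with 2 mismatches, and a second pair of 21 bases, AGACTTGATCtGGGCTAGTTT, lies 20 to 40 bases after it with 1 mismatch. The Cdkn1a pair lies 51 to 32 bases before the start used with 1 mismatch, and its distance from any other Cdkn1a start was not looked at. RefSeq promoters were matched for 143 of the 300 genes (172 promoters of 300 bases, from 250 before to 50 after the start). A pair with up to 1 mismatch was found in 1 of the 172 (0.581%) and in 36 of all 32851 promoters (0.11%), and with up to 2 mismatches in 2 (1.16%) and 224 (0.682%). That 1 promoter, also 1 of the 2, belongs to 1700007K13Rik. Since that gene is among the 300 only through the group in which it is high, these shares support no difference from all promoters. The other of these 2 was 2700097O09Rik, with GAACCTGCTCtTGGCTTGTCC at bases 1 to 21 after its start, whose level did not pass the test (0.09 ± 0.16, adjusted p = 0.795). An exact single decamer was in 8 of the 172 promoters (4.65%) and in 8.36% of all. Of the 18 called transcripts, 12 had a promoter in the table, and 1700007K13Rik was the 1 with a pair. These matches describe letters in the window and not binding.

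The other rises were 2.23-fold or smaller. 1110012L19Rik, a protein-coding gene on the X chromosome (70385877 to 70389417), had 14.3, 12.2, 16.7, 17.9 and 18.9 CPM in control embryos 1 to 5 and 30.7, 31.4, 28.1, 19.6 and 23.9 CPM in p53_activated embryos 1 to 5. The groups did not overlap, and p53_activated embryo 4 came closest to the controls (log2FC 0.74 ± 0.16, adjusted p = 0.0111). 4933427D14Rik on chromosome 11 (72153929 to 72207459), the mouse counterpart of the human centriolar satellite gene KIAA0753, had 16.03, 17.9, 17.3, 16.8 and 14.6 CPM in control against 26.8, 22.4, 23.8, 30.2 and 17.8 CPM in p53_activated embryos. Its p53_activated embryo 5 lay within the control range, and the log2FC was 0.55 ± 0.15 (adjusted p = 0.0321).

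2610507B11Rik on chromosome 11 (78261752 to 78290623), a long and well expressed gene, held 117, 107, 109, 112 and 107 CPM in control and 124, 128, 129, 147 and 150.3 CPM in p53_activated embryos, a small change without overlap (0.29 ± 0.08, adjusted p = 0.0416). 2410002F23Rik on chromosome 7 (44246722 to 44252319) had 6.20 to 10.7 CPM in control and 9.82 to 23.5 CPM in p53_activated embryos, with p53_activated embryo 4 the highest and an overlap between the groups (0.82 ± 0.23, adjusted p = 0.0409). Of its exon bases, 13.6% are shared with another gene on the same strand. The sixth riser, Gm24187, is described with Gm26917 and Gm15564.

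The falls were smaller than the leading rise, and the largest was that of a long non-coding RNA. D930028M14Rik, a lincRNA on chromosome 7 (25152457 to 25156627, plus strand), lies inside Pou2f2, a POU homeodomain transcription factor gene on the other strand, without sharing an exon. It had 54.6, 55.8, 86.2, 100.4 and 97.2 CPM in control embryos 1 to 5 and 37.6, 39.5, 32.8, 47.9 and 41.4 CPM in p53_activated embryos 1 to 5. All p53_activated embryos lay below all controls, and control embryos 1 and 2 were the lowest of their group. The mean fell from 78.8 ± 22.2 to 39.8 ± 5.53 CPM, with a log2FC of -0.98 ± 0.18 (adjusted p = 0.00351). Pou2f2 also fell, from 77.7 ± 9.31 to 54.7 ± 11.5 CPM (-0.50 ± 0.13, adjusted p = 0.0333).

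6330403K07Rik, a protein-coding gene on chromosome 11 (71031941 to 71033513, minus strand), had 256, 209, 151, 188 and 175 CPM in control and 125, 134, 109.8, 124 and 106 CPM in p53_activated embryos. The groups were separate, with control embryo 1 the highest and control embryo 3 nearest to the p53_activated range (-0.71 ± 0.12, adjusted p = 0.00226). 5730409E04Rik on chromosome 4 (126609818 to 126614371) had 20.1, 18.6, 15.0, 11.04 and 13.9 CPM against 9.70, 9.45, 7.07, 6.52 and 10.1 CPM, again without overlap (-0.88 ± 0.19, adjusted p = 0.0111). B630019K06Rik on the X chromosome (8892382 to 8894964) had 20.5, 18.5, 16.7, 13.4 and 13.1 CPM against 8.47, 9.09, 9.62, 12.3 and 8.67 CPM (-0.76 ± 0.17, adjusted p = 0.0125). In both genes control embryos 1 and 2 were the highest of their group.

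1700027J19Rik, named Cdc42ep5 in GENCODE M21 and encoding an effector of the small GTPase Cdc42, had 34.3, 30.0, 20.6, 22.6 and 23.6 CPM in control and 19.7, 17.6, 17.2, 14.9 and 17.5 CPM in p53_activated embryos, with no overlap (-0.59 ± 0.15, adjusted p = 0.0274). 1700025G04Rik had 74.3, 62.7, 52.1, 55.5 and 51.1 CPM in control and a narrow 42.6 to 45.2 CPM in p53_activated embryos (-0.42 ± 0.11, adjusted p = 0.0329). B230118H07Rik, which encodes an intraflagellar transport-associated protein, had 72.9 to 89.9 CPM in control and 53.02 to 68.6 CPM in p53_activated embryos (-0.40 ± 0.10, adjusted p = 0.0219). 1810022K09Rik, known as a ribosome biogenesis factor, had 45.3 to 51.1 CPM against 34.9 to 41.3 CPM (-0.35 ± 0.09, adjusted p = 0.0369). 4931406C07Rik had 10.1 to 13.2 CPM against 6.22 to 8.79 CPM (-0.57 ± 0.16, adjusted p = 0.0416). In these 5 genes every p53_activated embryo lay below every control embryo.

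The other 3 falls had overlapping groups. D430019H16Rik had 158, 158, 99.3, 106 and 105 CPM in control embryos 1 to 5 and 77.2 to 102 CPM in p53_activated embryos, so that control embryos 1 and 2 stood well above the other 8 (-0.49 ± 0.14, adjusted p = 0.0493). Gm16104, annotated as antisense to Nfic, a nuclear factor I gene, had 8.02, 12.7, 10.1, 19.5 and 14.6 CPM against 6.06 to 8.98 CPM (-0.86 ± 0.22, adjusted p = 0.0289), while Nfic had a log2 fold change of -0.04 ± 0.37 (adjusted p = 0.962). Of the exon bases of Gm17066, a processed transcript, 37.1% are shared on the same strand with another gene; it lies in the RNA-binding protein gene Rbm26. Gm17066 had 49.8 to 74.7 CPM against 40.3 to 55.5 CPM (-0.47 ± 0.12, adjusted p = 0.0331), and Rbm26 a log2 fold change of 0.31 ± 0.12 (adjusted p = 0.132). Since the strand setting of the counting is not given in the sources used here, reads of a gene and its antisense partner cannot be told apart.

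**Figure D2:**
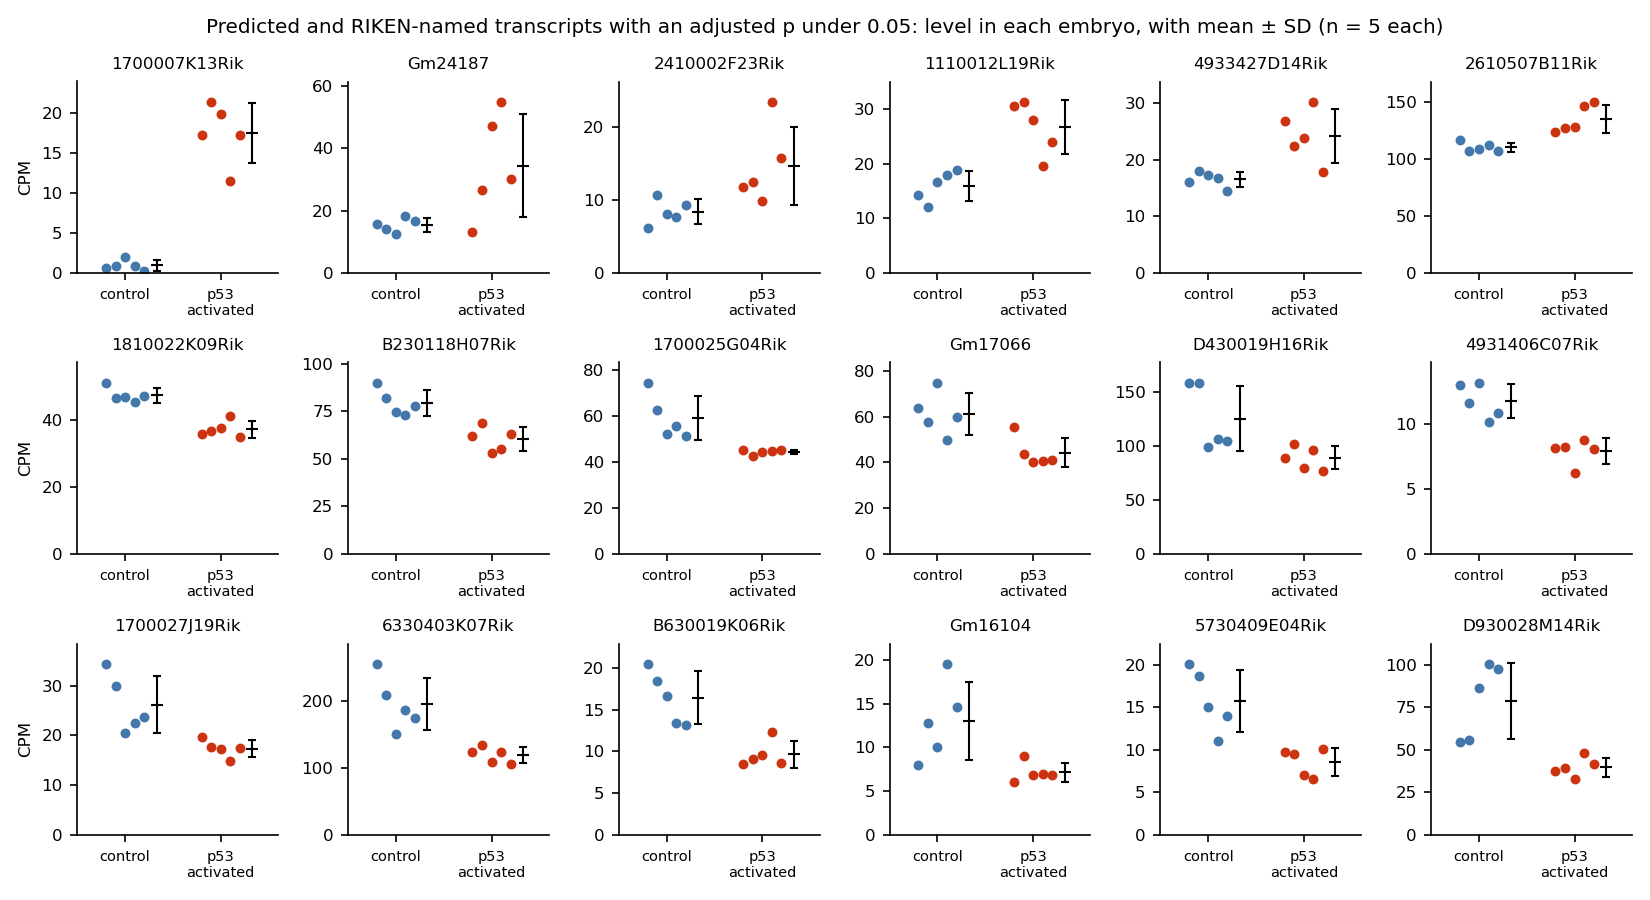
Each panel plots 1 of the 18 transcripts with an adjusted p under 0.05, with the level in CPM of each control embryo (blue) and each p53_activated embryo (red) and, beside the points, the mean and SD of the 5 embryos. 1700007K13Rik goes from under 2.04 to over 11.5 CPM, and 12 of the 18 panels, counting 9 of the 12 falls, show no overlap between the groups.

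The 18 calls differed in how far they rested on single embryos. Those of 1700007K13Rik, D930028M14Rik, 6330403K07Rik, 1110012L19Rik, B630019K06Rik and 5730409E04Rik were kept whichever embryo was left out, with adjusted p up to 2.83e-05, 0.0156, 0.00983, 0.0333, 0.0415 and 0.0375. With control embryos 1 and 2 both left out, a choice made after seeing the values, 1110012L19Rik, B630019K06Rik and 5730409E04Rik lost theirs too (0.062, 0.0908 and 0.0894), and D430019H16Rik came to a log2 fold change of -0.22 (0.258). The call of B230118H07Rik was lost without control 2 or p53_activated 3 (0.0549 to 0.0595), that of 1700027J19Rik without control 1 or 2 or p53_activated 2, 3, 4 or 5 (0.0539 to 0.0748), and that of Gm16104 without control 2, 4 or 5 or p53_activated 1, 3 or 5 (0.0592 to 0.0851). 2610507B11Rik lost it without control 2, 3, 4 or 5 or p53_activated 2, 4 or 5 (0.0561 to 0.106), and D430019H16Rik without control 1 or 2 or any p53_activated embryo (0.0536 to 0.124). 1700025G04Rik lost it without control 1, 2 or 4 or p53_activated 1, 2, 3 or 5 (0.0510 to 0.0811), and 4933427D14Rik without control 1, 2, 4 or 5 or p53_activated 1, 3 or 4 (0.0524 to 0.0727). 2410002F23Rik lost it without control 1, 3, 4 or 5 or p53_activated 2, 4 or 5 (0.0528 to 0.0936), and Gm17066 without control 1, 2, 3 or 5 or p53_activated 2, 3, 4 or 5 (0.0521 to 0.0879). The calls of 1810022K09Rik and 4931406C07Rik were kept only without p53_activated 4 (otherwise 0.0585 to 0.0972 and 0.0547 to 0.104), and that of Gm24187 only without p53_activated 1 (otherwise 0.0528 to 0.104).

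Markers of neurons moved with the genotype too. All 5 (Tubb3, Stmn2, Elavl4, Isl1 and Pou4f1) fell, with a summed level of 427 to 575 CPM in control and 230.4 to 328 CPM in p53_activated embryos. Their part in the 12 falls was not tested, and in bulk libraries fewer cells of a type and less RNA per cell cannot be told apart. Of the erythroid (6 tested), macrophage (4), endothelial (3), epithelial (4) and muscle (4) markers edgeR called 0. Of these, 2 epithelial and 2 muscle markers had an unadjusted p under 0.05, and DESeq2 called 2 and limma-voom 1, all of muscle. The summed levels were 67.7 to 154 CPM in control and 37.7 to 106 CPM in p53_activated embryos for epithelium, and 31.5 to 77.4 and 27.9 to 51.3 CPM for muscle.

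Of 4 loci with similar profiles over the embryos, edgeR called 1 higher (Gm24187), and 3 missed its threshold. Gm26917, a lincRNA on chromosome 17 (39843013 to 39846341), ends 12 bases before the ribosomal RNA gene Rn18s-rs5 (39846354 to 39848202). It had 242, 239, 106, 215 and 192 CPM in control embryos 1 to 5 and 209, 353, 591, 594 and 424 CPM in p53_activated embryos 1 to 5. Gm15564 had 101, 109, 102, 115 and 132 CPM against 88.7, 175, 198, 299.9 and 199 CPM. In both, p53_activated embryos 2 to 5 lay above every control and p53_activated embryo 1 lay within or below the control range. Gm26917 had a log2FC of 1.13 ± 0.31 (adjusted p = 0.0610) and Gm15564 of 0.78 ± 0.25 (0.0890), and so neither passed by edgeR. In the authors' deposited table both were higher (adjusted p by DESeq2 = 0.0108 and 0.00477), so their call depends on the tool.

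Gm23935 and Gm24187, a pair of 57-base loci annotated as miRNAs on chromosomes 16 (chr16:11144125-11144181, plus strand) and 13 (chr13:9834469-9834525, minus strand), are shown because they differ at 1 base, which is in capitals.
Gm23935: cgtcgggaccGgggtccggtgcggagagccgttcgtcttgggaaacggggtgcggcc
Gm24187: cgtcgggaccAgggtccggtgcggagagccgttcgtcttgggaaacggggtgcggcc
Gm23935 had 105, 97.2, 69.7, 102 and 97.1 CPM in control and 79.3, 155, 278, 294 and 225 CPM in p53_activated embryos (1.13 ± 0.32, adjusted p = 0.0609). It too missed edgeR's threshold but was higher in the authors' deposited table (adjusted p by DESeq2 = 0.0113). Gm24187 had 15.9, 14.1, 12.6, 18.2 and 16.7 CPM against 13.3, 26.7, 47.0, 54.8 and 30.2 CPM and passed (1.16 ± 0.31, adjusted p = 0.0422). The same embryo, p53_activated 1, was again among the controls. Since the 2 loci are near-identical, their counts are not separate evidence. A list of 15 ribosomal RNA and satellite repeat loci holds Gm26917 and Gm15564 but not Gm23935 or Gm24187. Of the 15, 9 were at 0 in every library, 3 were tested and 0 were called by edgeR and limma-voom (2 had an unadjusted p under 0.05 and 2 were called by DESeq2); their summed level was 213 to 349 CPM in control and 298.5 to 898 CPM in p53_activated embryos.

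**Figure D3:**
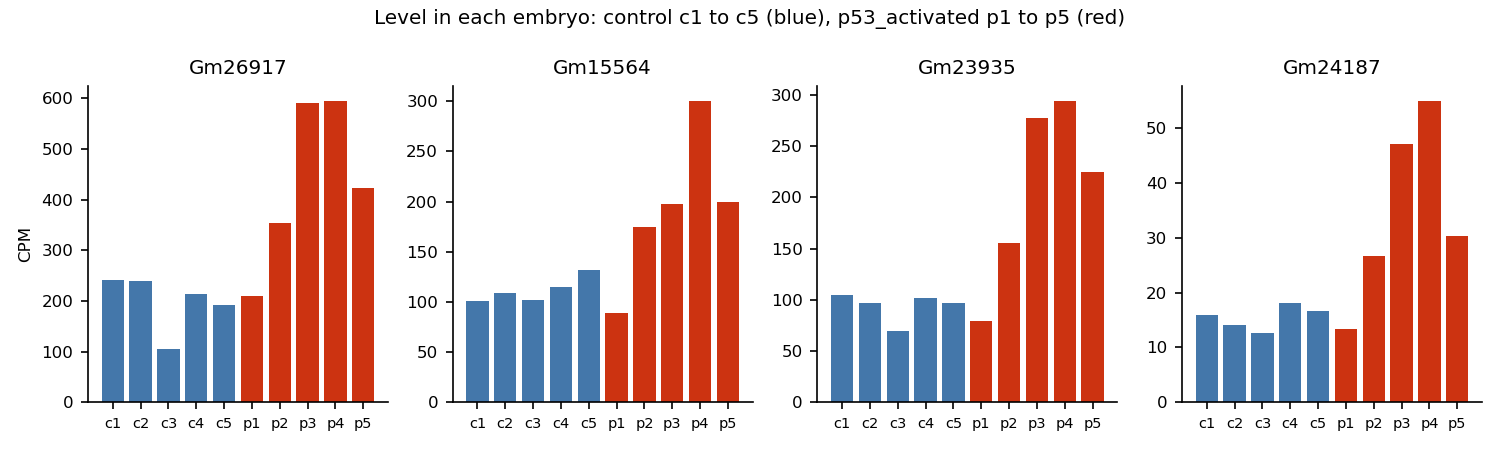
Bars give the level in CPM of Gm26917, Gm15564, Gm23935 and Gm24187 in each control embryo (c1 to c5, blue) and each p53_activated embryo (p1 to p5, red), on axes that start at 0. In all 4 panels p2 to p5 stand above the 5 controls, and p1 does not.

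Pseudogenes are described apart, since most of them have a near-identical named gene. Of 74, 73 were tested and 0 were called by edgeR, DESeq2 or limma-voom, 6 had an unadjusted p under 0.05, and the median log2 fold change was 0.01. Near-identical copies with a proper name (at least 95% identity over at least 80% of the transcript) were found for 70 of the 74, of which 42 were ribosomal protein genes, and the match reached 99% identity for 43 and 100% for 13. Counted over all classes, 77 transcripts had such a named copy, and their mean level was a median 2.65% of that copy's. Of the 77, 8 exceeded the copy itself, among them Gm9385 at 509% of the ribosomal protein gene Rpl24, Gm15500 at 287% of Rpl5 and Gm6793, the most abundant of the 300, at 184% of Hnrnpa3. Reads of these copies and their parents may be split between them by the counting, so their values are uncertain.

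Gm14036 and Gm13841, the second and eighth most abundant of the 300, are both processed pseudogenes 99.4% identical to the ribosomal protein gene Rpl29. Gm14036 on chromosome 2 (134803949 to 134804428) had 742, 325, 379, 709 and 372 CPM in control and 659, 711, 409, 605 and 725 CPM in p53_activated embryos. Gm13841 on chromosome 5 (115801677 to 115802159) had 339, 214, 247, 411 and 256 CPM against 382, 397, 282, 319 and 379 CPM. Rpl29 itself was listed at 3.35, 775, 826, 4.40 and 849.9 CPM in control and at 8.33, 3.78, 996, 4.81 and 3.95 CPM in p53_activated embryos. The pseudogenes were thus at their lowest in the same 4 embryos (control 2, 3 and 5 and p53_activated 3) in which Rpl29 was high, and Rpl29 was at 8.33 CPM or less in the other 6. The sum of the 3 genes ran from 1085 to 1478 CPM in control and from 929 to 1687 CPM in p53_activated embryos. It was not constant: it was 1313, 1452, 1478 and 1687 CPM in the 4 embryos with high Rpl29, against 929 to 1125 CPM in the other 6. Over the aligned 480 bases Gm14036 and Rpl29 differ at 3. A coding stretch of 60 bases with 1 of them, in capitals, is shown as an example of the likeness of copy and named gene; what sets the levels was not tested.
Gm14036: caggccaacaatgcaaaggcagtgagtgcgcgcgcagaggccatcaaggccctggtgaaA
Rpl29: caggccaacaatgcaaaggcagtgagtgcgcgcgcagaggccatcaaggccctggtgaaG

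Other transcripts were at a high level in some embryos and a low level in others, across genotypes. A gap of at least 3-fold in the ranked levels, with at least 2 embryos on each side, was found in 7 of the 300 (2.33%) and in 41 of the 8413 other genes with as many counts (0.487%). Of the 7, 5 were pseudogenes (of 74, 6.76%), 1 was a protein-coding annotation close to Ahcy, and 1 was 1700007K13Rik, whose gap lay between the groups. Gm8730 on chromosome 8 (102864845 to 102865798), a copy of the ribosomal protein gene Rplp0, had 42.5, 37.1, 46.5, 41.3 and 957 CPM in control embryos 1 to 5 and 939.5, 991, 54.4, 38.6 and 52.1 CPM in p53_activated embryos 1 to 5. Gm9625 on chromosome 13 (67810246 to 67811200), also closest to Rplp0, had 6.71, 3.62, 6.19, 7.47 and 185 CPM against 196, 171, 6.09, 5.37 and 8.19 CPM. The same 3 embryos were high in both, 1 control and 2 p53_activated. Rplp0 lay between 3578 and 5192 CPM in all 10 embryos.

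Gm8730 and Rplp0 share 942 of 954 aligned bases. The coding stretch of 60 bases with the most differences, 3 and in capitals, is shown for bases 388 to 447 of Gm8730 and 509 to 568 of the Rplp0 transcript.
Gm8730: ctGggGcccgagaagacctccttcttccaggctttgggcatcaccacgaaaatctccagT
Rplp0: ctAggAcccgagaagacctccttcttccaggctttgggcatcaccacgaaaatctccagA

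Gm4737, annotated as protein coding and 99.7% identical to Ahcy, the S-adenosylhomocysteine hydrolase gene, had 0.682, 0.865, 38.5, 39.4 and 45.2 CPM in control and 39.2 to 50.3 CPM in p53_activated embryos. Control embryos 1 and 2 were thus 44.6-fold or more below the other 8, while Ahcy ran from 63.4 to 101 CPM. Gm4366, a copy of the elongation factor gene Eef1g named after its values were seen, was low in the same 2 embryos, at 20.6 and 22.4 CPM against 95.7 to 117 CPM in the other 8. Gm14719 on the X chromosome (49660960 to 49661299), a copy of Ppdpf, had 41.3, 41.3, 0.498, 0.383 and 33.4 CPM in control and 0.198 to 0.624 CPM in p53_activated embryos. It was high in control embryos 1, 2 and 5, and with only 3 embryos above the count minimum it is the 1 of the 300 that did not enter the test. Gm11942, a copy of Rplp1 also chosen after its values were seen, was at 22.7, 27.7 and 29.4 CPM in control embryos 2 and 5 and p53_activated embryo 3, against 112 to 226 CPM in the other 7. Gm14150, a copy of the tubulin gene Tuba1b, was at 44.0 CPM in control embryo 3 and 32.2 CPM in p53_activated embryo 3, against 6.42 to 11.6 CPM in the other 8. Gm8730, Gm9625, Gm4737, Gm4366, Gm11942 and Gm14150 were tested and not called (adjusted p from 0.530 to 0.995). Gm14719, not tested here, was lower in the authors' deposited table (adjusted p = 0.0178).

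**Figure D4:**
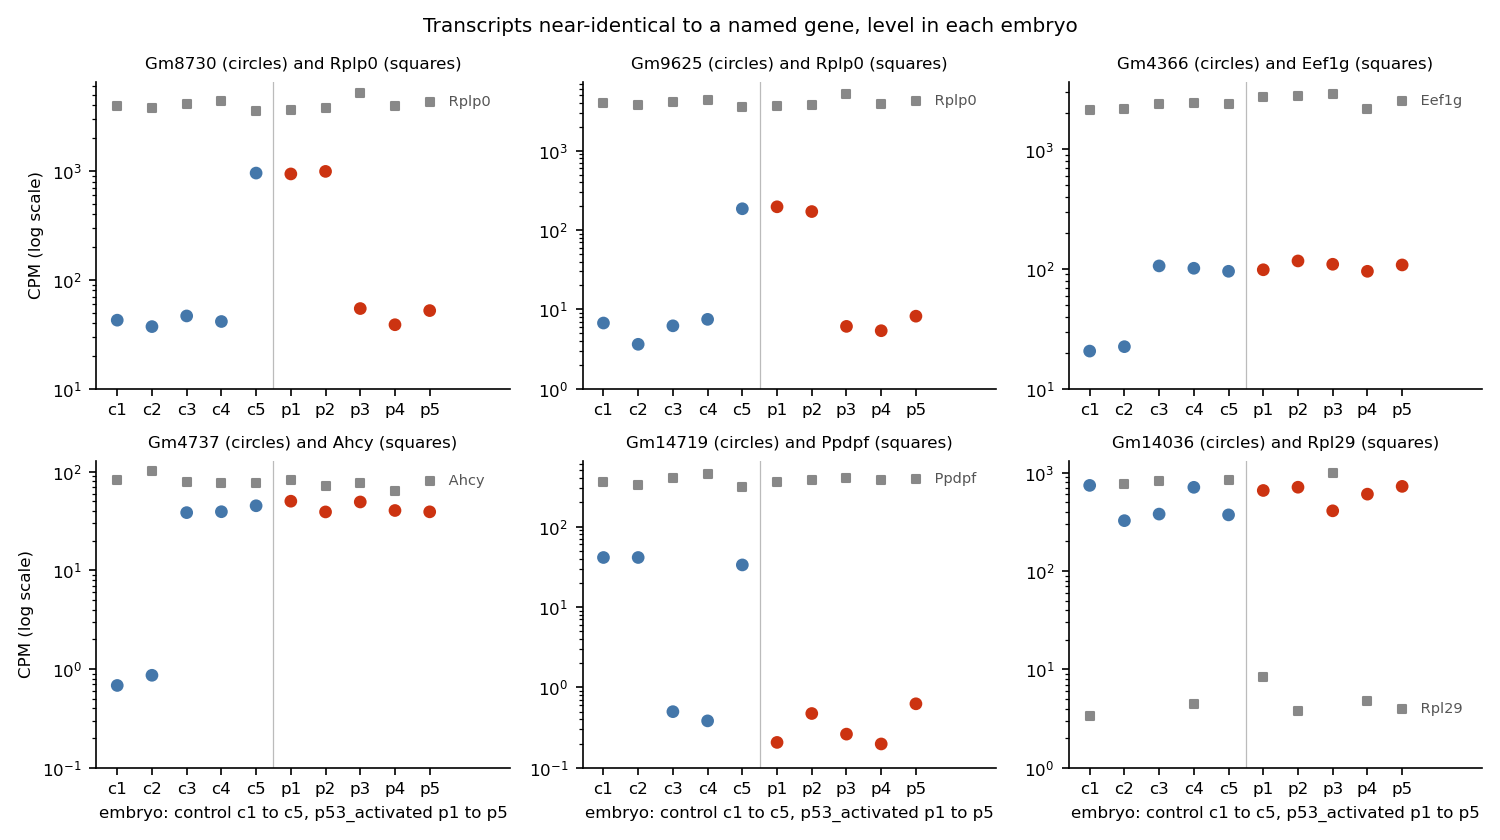
The level in CPM, on a log scale, of 6 transcripts (circles, control blue and p53_activated red) and of the near-identical named gene (grey squares) is plotted for each embryo. Gm8730 and Gm9625 are high in c5, p1 and p2 while Rplp0 stays level, Gm4366 and Gm4737 are low in c1 and c2, and Rpl29 is low in 6 embryos in which Gm14036 is at 605 CPM or more.

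The spread between embryos of 1 group was also larger for these transcripts than for other genes, taken as medians. The median coefficient of variation of the 300 was 17.1% in control and 16.4% in p53_activated embryos, against 13.9% and 12.998% for other genes with as many counts. That set, also used for the gaps above, holds every other gene with at least the counts of the least abundant of the 300. It was not matched in level to the 300, whose median was 21.3 CPM. Whether level accounts for the difference in spread was not tested. Pseudogenes had 20.2% and 19.4%, long non-coding RNAs 21.6% and 18.8%, protein-coding genes 15.3% and 14.4%, and the 12 of other kinds the largest medians of these classes, 24.2% and 22.04%.

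Of 145 protein-coding genes 5 were higher and 9 lower (9.66%, DESeq2 20, limma-voom 11), which is the background share of 9.64% among genes with as many counts. Of 67 long non-coding RNAs 0 were higher and 3 lower (4.48%), with a median log2 fold change of -0.13, and 18 had an unadjusted p under 0.05 (DESeq2 6, limma-voom 2). Beside D930028M14Rik, Gm16104 and Gm17066, the smallest p of this class belonged to Gm26917 and Gm15564. The 12 of other kinds had 1 call, Gm24187. Among pseudogenes the smallest adjusted p was 0.0884, of Gm12191 (-0.45 ± 0.15), followed by 0.124 of Gm7536 (0.57 ± 0.21). By exon overlap, 10 of 204 tested transcripts without a shared exon were called (4.90%), 5 of 74 with a shared exon on the opposite strand only (6.76%) and 3 of 19 with one on the same strand (15.8%).

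Genes beside or across these transcripts were compared with them. A named partner, overlapping or starting within 5 kb, was tested for 120 of the 300, with 7 of the transcripts and 10 of the partners called and 2 pairs called on both sides. Across the 120 pairs the log2 fold changes had a Pearson r of 0.014 and a Spearman rho of 0.092, given as a description, since neighbours share libraries and pairs are not replicates. The pairs called on both sides were D930028M14Rik and Pou2f2, which both fell, and 4933427D14Rik and Txndc17, whose starts lie 88 bases apart on opposite strands. Txndc17, a thioredoxin-related gene, had 202, 210.5, 215, 214 and 233 CPM in control and 165 to 189 CPM in p53_activated embryos and fell (-0.28 ± 0.08, adjusted p = 0.0419) while its neighbour rose.

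In the other 8 called partners the named gene rose and the placeholder-named transcript did not pass. Gtf3c1, a subunit of the RNA polymerase III factor TFIIIC, went from 69.2 ± 6.42 to 120.1 ± 17.2 CPM (0.80 ± 0.10, adjusted p = 0.000169), and D430042O09Rik, 108 bases away on the opposite strand, had a log2 fold change of 0.30 ± 0.19 (0.389). Kif15, a mitotic kinesin gene, rose from 71.1 ± 5.61 to 107 ± 10.5 CPM (0.59 ± 0.09, 0.000749), and 1110059G10Rik, 46 bases away, had -0.07 ± 0.23 (0.903). Ptbp1, a splicing regulator, rose by 1.24 ± 0.32 on the log2 scale (0.0416) and Ankrd52 by 1.05 ± 0.22 (0.0105), against 0.10 ± 0.17 and 0.07 ± 0.16 for E130317F20Rik and Gm17201 across them. The same held for Chd2 with 1810026B05Rik (0.67 against -0.15), Fzd10 with 5930412G12Rik (0.59 against -0.46), Ankrd11 with 2810013P06Rik (0.51 against -0.40) and Mphosph9 with 2810006K23Rik (0.43 against -0.01). For Ptbp1 the groups overlapped. It had 27.7, 32.9, 36.1, 85.97 and 71.6 CPM in p53_activated embryos 1 to 5, and 30.5 CPM in control embryo 5. Embryos 4 and 5 were also the highest for Ankrd52, Chd2, Ankrd11, Fzd10 and Gtf3c1, whose groups did not overlap. For Kif15 they were the lowest p53_activated embryos. Of the exon bases of 1810026B05Rik, 30.5% are shared with Chd2 on the same strand. On the opposite strand Gm17201 shares 59.5% with Ankrd52 and E130317F20Rik 8.21% with Ptbp1. How reads in these shared bases were counted was not looked at. Whether the 2 sides of a pair differed from each other was not tested. None of the partners is among the 36 p53 target genes looked for, of which 28 of 35 tested were higher and 0 lower.

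**Figure D5:**
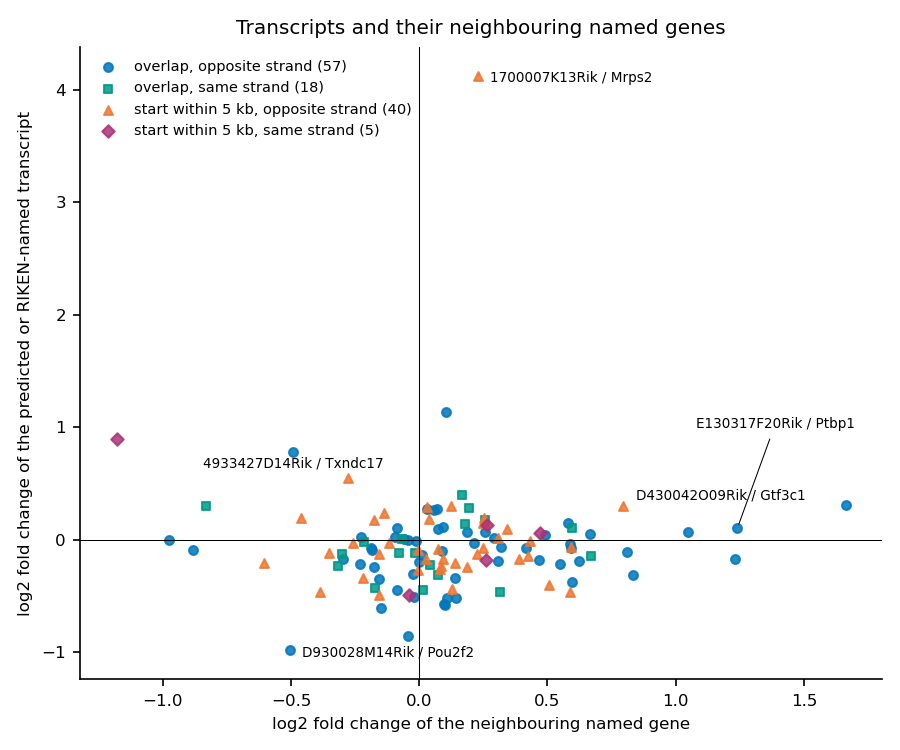
The log2 fold change of each placeholder-named transcript is plotted against that of its named neighbour for the 120 pairs with both tested, by the position of the neighbour. Most points lie near 0 on the vertical axis whatever the neighbour did, as for Ptbp1 at 1.24, whose groups overlapped. 1700007K13Rik stands at 4.12 beside Mrps2 at 0.23.

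Position on the chromosome was looked at because the engineered allele lies at Trp53 on chromosome 11. Of 8 transcripts within 10 Mb of Trp53, 3 were called, 6330403K07Rik (lower, 1.45 Mb away), 4933427D14Rik (higher, 2.57 Mb) and 2610507B11Rik (higher, 8.68 Mb). Over all tested genes in that window the share was 30 of 290 (10.3%), and 15 of the 291 tested transcripts elsewhere (5.15%) were called. The changes there ran in both directions. Every p53_activated embryo and no control carries the engineered allele. Effects of lying near that allele and of the stabilised p53 therefore cannot be told apart here. Of 10 transcripts on the X chromosome 9 were tested, with 1110012L19Rik higher and B630019K06Rik lower (22.2%, against 7.23% of all tested genes). The share over all X-linked genes was not taken, so these few calls do not set the X chromosome apart. Both transcripts kept their call with embryo sex as a term. None lies on the Y chromosome.

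Some of the most abundant names hide genes with a known role, and none of the 10 most abundant passed the test. 2010107E04Rik, an ATP synthase subunit gene (Atp5mpl), had 575 ± 34.1 and 509 ± 38.8 CPM (-0.17 ± 0.08, adjusted p = 0.216). 2700060E02Rik (Rtraf, an RNA ligation and transcription factor) had 575 ± 20.2 and 509 ± 63.4 CPM (0.276), 2310036O22Rik (Trir) 426 ± 44.7 and 404 ± 31.9 CPM (0.675), and E130012A19Rik (Epop, a partner of Polycomb proteins) 342 ± 40.8 and 406 ± 50.6 CPM (0.178). Gm6793, Gm1673 and Gm16286, also among the first 10, had adjusted p of 0.919, 0.585 and 0.364. The groups overlapped in all 10.

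The 3 lists of RIKEN-named genes by role gave 0 calls. The proliferation proteins 2810417H13Rik (Pclaf, which binds the replication clamp) and C330027C09Rik (Cip2a, an inhibitor of the phosphatase PP2A) had log2 fold changes of 0.02 ± 0.13 (adjusted p = 0.946) and 0.18 ± 0.14 (0.493). Pclaf ran from 72.8 to 121 CPM in control and from 80.5 to 108 CPM in p53_activated embryos. Of the cilium genes, 2410089E03Rik (Cplane1) had 18.2 to 25.2 CPM in control and 23.1 to 32.2 CPM in p53_activated embryos (0.38 ± 0.14, 0.104), an overlapping range. The 4 tested hosts of small RNAs ran from -0.04 (C130071C03Rik) to 0.26 (2410006H16Rik), all with adjusted p of 0.352 or more. Of these 8 tested genes, the 300 included 7. By edgeR, DESeq2 and limma-voom alike 0 of the 3 lists' genes were called, and 1, Cplane1, had an unadjusted p under 0.05.

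Separate groups did not always give a call. 4930427A07Rik (Tedc1, a centriole gene), chosen after its values were seen, had 41.2, 35.5, 33.2, 35.6 and 6.70 CPM in control and 44.3, 49.9, 80.8, 41.8 and 45.9 CPM in p53_activated embryos. Every p53_activated embryo lay above every control, but control embryo 5 and p53_activated embryo 3 stood far from their groups, and the test gave an adjusted p of 0.293 (0.78 ± 0.40). In the authors' deposited table, 13 of the 300 were higher and 16 lower at an adjusted p under 0.05, against 1624 of the 15089 genes with an adjusted p there, and all 18 calls made here were among them with the same sign.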

How the data were processed

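The deposited data are raw counts for each Ensembl gene in 10 libraries. A table of the authors' own comparison holds, per the file headers, a mean normalised signal for each gene, log2 fold changes and their errors, a Wald score and p-values. Per the submitters' processing notes HISAT2 2.0.4, SAMtools 1.3.1, HTSeq 0.6.1, DESeq2 1.14.1 and the build GRCm38 were used; for the annotation release, strand setting and multiply mapped reads, the entry is not given in the sources used here.

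Genes kept by filterByExpr (minimum count 10, minimum total 15) were scaled by TMM and tested over all 10 libraries, without covariates, by the robust quasi-likelihood F-test of edgeR 4.0.16 (R 4.3.3). Adjusted p-values are Benjamini-Hochberg values over all 14528 genes, with a threshold of 0.05, and are edgeR's unless another tool is named. Alternatives were DESeq2 1.42.0, limma-voom (limma 3.58.1), other scalings and filters, non-robust dispersion, embryo sex or replicate number as a term, other member counts and leaving out embryos. On simulated counts for this comparison of 14528 genes, 30.0% of genes changed 1.5-fold, 64.4% changed 2-fold and 97.0% changed 4-fold were recovered, with 6 false among 136 calls. The genes changed by these folds numbered 60, 73 and 67, far fewer than the 1050 called in the data. Recovery in the data may therefore differ. Near-identical copies came from blastn 2.17.0 of each longest transcript against all GENCODE M21 transcripts; partners and overlaps are from the same annotation, which held 99.5% of the gene identifiers, and promoters are from RefSeq (GRCm38.p6).

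The transcripts and lists were chosen with earlier results of these data known. Named are the 10 most abundant, up to 15 rises and falls, up to 5 per list or class by p, partners, the ranks around 300 and the 5 with the largest spread within a group; others are said to be chosen after their values were seen, as are the pairs of copy and named gene and the transcripts beside called partners. Totals of 12368058 to 28379562 counts set the depth.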

Additional observations from a re-analysis of the deposited data

Results flagged for a closer look

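In groups of 5 embryos, 1 embryo was called far from the others when its gap to the nearest was more than 0.71 of the group's range. Of 134 groups of the 67 named transcripts examined, 13 were so marked. Chance gives about 1 in 20, but some of the 67 were named for their large spread or after their values were seen, so the count is not read against that rate. In Gm8730 and Gm9625, control embryo 5 was high, at 957 and 185 CPM, as were p53_activated embryos 1 and 2. Gm14150 was high in control embryo 3, at 44.0 CPM, and in p53_activated embryo 3, at 32.2 CPM. Gm11263, a copy of Rps6, was high in control embryo 1 (27.5 CPM, the other 4 at 10.3 to 12.1 CPM). Gm12346, a copy of Hsp90aa1, was low in control embryo 1 (2.44 CPM) and p53_activated embryo 2 (3.78 CPM). 4930427A07Rik was low in control embryo 5 (6.70 CPM) and high in p53_activated embryo 3 (80.8 CPM). Control embryo 3 was low for Gm23935 (69.7 CPM). The called falls Gm17066 and 4931406C07Rik each had 1 such embryo, p53_activated 1 at 55.5 CPM and p53_activated 3 at 6.22 CPM, and Gm44950 was high in p53_activated embryo 3 (9.82 CPM).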

How the results depend on the processing

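The number of genes called, 1050, became 656 with control embryos 1 and 2 both left out, 636 to 1025 with 1 embryo left out (636 without control 2, 692 without control 4, 652 without p53_activated 5) and 1664 by DESeq2. Against 6 higher transcripts, 3 were called with embryo sex as a term, 3 with the replicate block, 3 by limma-voom, 13 by DESeq2, 15 over every tested name of the kind, 1 with control embryos 1 and 2 both left out and 2 to 9 with 1 embryo left out. Against 12 lower, 7 were called with embryo sex as a term, 5 with control embryos 1 and 2 both left out, 6 among transcripts without exon overlap, 20 over every tested name and 4 to 10 with 1 embryo left out. No call of a named transcript reversed in direction in any alternative run. Same-numbered embryos did not deviate together (correlations from -0.05 to 0.11), so the numbers do not pair them; with the replicate block 12 of the 18 calls remained. All 18 remained under RLE scaling and by DESeq2, which added 10, and 4 remained with control embryos 1 and 2 both left out. The calls of 1700007K13Rik, 6330403K07Rik and D930028M14Rik were kept in all 21 alternatives. Recovery of 1.5-fold changes in simulated counts was 30.0%, so small differences can be missed at this depth and spread. The simulation held far fewer changed genes than the 1050 called in the data, so recovery in the data may differ from 30.0%.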
